A study of Mus musculus with 32 samples.

Results

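The genes described here are Col4a1, Col4a2, Lama1, Lamb1, Lamc1, Nid1, Hspg2, Sparc, Dab2 and Pth1r. They were taken by name, as basement membrane genes together with genes known from parietal endoderm, and are 10 of the 55401 genes that each of the 5 expression tables lists. No measured value entered the choice, although it was made with earlier results of these data known. The cells sequenced were embryonic fibroblasts of OG2X129 mice, which carry a GFP reporter under control of the Pou5f1 gene, during and before chemical reprogramming towards pluripotency, the iPSC obtained, and embryonic stem cells. There were 32 libraries in 16 groups of 2. All cultures in reprogramming, controls included, were in a medium with KnockOut DMEM, serum and serum replacement, bFGF and small molecules. The latter were EPZ004777 (5 μM), AM580 (0.5 μM, a retinoic acid receptor agonist), Parnate (5 μM), Forskolin (50 μM, which raises cyclic AMP), 616452 (10 μM), VPA (0.5 mM), CHIR99021 (20 μM) and vitamin C (250 μM).

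The first 3 tables hold reprogramming intermediates of wild-type genotype or with 1 added change. In the CD table, CD cultures received CD3254, an agonist of retinoid X receptors, at a dose not given in the sources used here, and DMSO cultures received DMSO. In the Rxra OE table, cells that overexpressed Rxra were set against CTR cells, labelled as the wild type of the overexpression design. In the shE3 table, cells with a knockdown of Exosc3, a subunit of the RNA exosome, were set against shCTR cells, labelled as the wild type of the shRNA design. A further table followed CD and DMSO intermediates for 0, 4 and 8 h of actinomycin D, an inhibitor of transcription. The last table held iPSC obtained with CD (CD-iPSC) or with DMSO (DMSO-iPSC, spelled DMSP in the titles), fibroblasts (MEF, which carry the same labels as shCTR cells) and R1 embryonic stem cells, which had no reprogramming treatment. Neither the day of reprogramming nor the vector, hairpin or number of iPSC clones is given in the sources used here. The labels do not say whether replicates came from separate cultures, so p-values measure only the spread between these libraries, which may be technical.

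A basement membrane is a thin sheet of extracellular matrix under epithelia and around several other cell types. Laminin, a trimer of an alpha, a beta and a gamma chain, assembles on cell surfaces into a first network, and type IV collagen, a trimer mostly of the alpha chains made from Col4a1 and Col4a2, forms a covalently linked network beside it. Nidogen and perlecan connect the networks. Parietal endoderm, an extraembryonic cell type of the rodent conceptus, secretes a very thick basement membrane named after Reichert, and its laminin is the trimer of Lama1, Lamb1 and Lamc1. Cells with features of extraembryonic endoderm (XEN-like cells) are known as an intermediate of chemical reprogramming of mouse fibroblasts. Sparc encodes a collagen-binding glycoprotein of the matrix, Dab2 a clathrin adaptor for endocytic receptors of the LDL receptor family, and Pth1r the receptor for parathyroid hormone and its related peptide; all are also expressed outside endoderm.

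On the mm10 assembly the collagen genes lie head to head on chromosome 8, with Col4a1 from 11198423 to 11312826 on the minus strand and Col4a2 from 11312805 to 11449287 on the plus strand, so that their first exons share 22 bases. Lama1 lies at chromosome 17, 67697259 to 67822647, and Lamb1 at chromosome 12, 31265234 to 31329644, both on the plus strand. Lamc1 lies at chromosome 1, 153218922 to 153332786, on the minus strand. Nid1 (chromosome 13, 13437551 to 13512269), Hspg2 (chromosome 4, 137468769 to 137570630) and Dab2 (chromosome 15, 6299788 to 6440712) are on the plus strand. Sparc (chromosome 11, 55394500 to 55423183) and Pth1r (chromosome 9, 110722085 to 110747145) are on the minus strand. The exons of Pth1r share 95 of 2925 bases with those of Myl3, a myosin light chain gene on the opposite strand. Whether counting used strand is not given in the sources used here, so reads of that stretch cannot be assigned to 1 of the 2 genes.

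RefSeq promoter windows (GRCm38.p6, 250 bases before to 50 after the annotated start) were at hand for 8 of the 10 genes, not for Lama1 and Lamc1. Those of the collagen pair are shown because the genes are transcribed away from each other out of 1 stretch, with 78 bases common to both windows. That of Lamb1 is shown for a laminin chain that moved with the collagens and that of Nid1 for a gene that moved against them. Capitals mark the GC box GGGCGG and the CCAAT box on either strand (CCGCCC and ATTGG read the other strand), and no match overlapped another. Windows are 5′ to 3′ on the strand of the gene, at chr8:11312777-11313076 (minus), chr8:11312555-11312854 (plus), chr12:31265043-31265342 (plus) and chr13:13437352-13437651 (plus).
Col4a1: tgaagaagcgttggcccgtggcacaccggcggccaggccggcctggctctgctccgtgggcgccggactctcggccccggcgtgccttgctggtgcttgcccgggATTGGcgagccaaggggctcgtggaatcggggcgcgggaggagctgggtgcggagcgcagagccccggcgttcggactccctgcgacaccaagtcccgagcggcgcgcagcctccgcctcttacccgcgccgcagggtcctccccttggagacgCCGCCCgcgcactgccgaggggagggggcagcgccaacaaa
Col4a2: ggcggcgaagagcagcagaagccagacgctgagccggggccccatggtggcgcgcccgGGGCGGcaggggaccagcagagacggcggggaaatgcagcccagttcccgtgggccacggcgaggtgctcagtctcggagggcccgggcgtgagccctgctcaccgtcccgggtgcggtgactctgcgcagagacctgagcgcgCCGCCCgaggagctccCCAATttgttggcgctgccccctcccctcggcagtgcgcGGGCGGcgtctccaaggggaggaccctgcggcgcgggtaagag
Lamb1: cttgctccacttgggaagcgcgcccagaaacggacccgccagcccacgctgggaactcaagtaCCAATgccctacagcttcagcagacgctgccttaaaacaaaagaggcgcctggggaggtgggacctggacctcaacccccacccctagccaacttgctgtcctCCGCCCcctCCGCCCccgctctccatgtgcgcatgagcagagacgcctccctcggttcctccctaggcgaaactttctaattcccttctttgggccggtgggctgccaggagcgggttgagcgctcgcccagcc
Nid1: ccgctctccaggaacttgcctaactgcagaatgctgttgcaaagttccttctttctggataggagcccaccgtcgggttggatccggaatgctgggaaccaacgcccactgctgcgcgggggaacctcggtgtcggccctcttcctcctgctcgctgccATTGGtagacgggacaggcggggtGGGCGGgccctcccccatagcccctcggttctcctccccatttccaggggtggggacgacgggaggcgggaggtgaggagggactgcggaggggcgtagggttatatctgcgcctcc
The GC content was 74.0% in the Col4a1 window, 73.7% for Col4a2, 63.7% for Lamb1 and 64.7% for Nid1, beside a median of 52.7% over 32851 mouse promoters. A GC box occurred once in the Col4a1 window, inside the shared stretch, 3 times in that of Col4a2, 2 times in that of Lamb1 and once in that of Nid1; 35.7% of all promoters hold one. Each of the 4 windows held 1 CCAAT box, as 37.4% of all promoters do. The windows of Hspg2, Sparc, Dab2 and Pth1r did not hold both boxes in any 1 window. A TATA box (TATAAA, 13.6% of promoters), a SOX site (ATTGTT, 10.7%) and a nuclear receptor half-site (AGGTCA, 16.3%) were in none of the 11 windows of the 8 genes. A GATA site (the letters GATA with A or T before and A or G after, 29.8%, sought like the others on both strands) was in 1 of the 2 Dab2 windows, with 2 matches, and in no other.

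Levels in 4 of the 5 tables are TPM, a library's transcript share scaled by transcript length, from which depth cannot be read; levels are therefore compared only within a table. The actinomycin D table holds read shares over genes, repeats and spike-ins, written CPM here, from which 15104589 to 23599258 gene reads per library were recovered. Mitochondrial genes took 50.9 to 62.0% of the summed TPM in the tables of CD and of Rxra OE. The labelled changes were visible: Rxra stood at 21.7 and 21.7 TPM with Rxra OE against 8.70 and 9.57 TPM in CTR (log2 change 1.17 ± 0.09 in the deposited values and 0.47 relative to the median gene, limma adjusted p = 4.51e-05 and 0.000957), and Exosc3 at 5.97 and 4.01 TPM in shE3 against 8.86 and 10.2 TPM in shCTR (-0.83 ± 0.17, limma adjusted p = 0.00767). Changes are given on the scale of log2(value + 1), where 1 unit is a doubling, with the standard error from limma and p-values adjusted by Benjamini-Hochberg over all genes tested, called below 0.05. Where the median log2 change over all genes tested was beyond 0.1 in either direction, most changes are also given relative to the median gene. For that scale each library was divided by a factor before 1 was added. The factor was the library's median log2 deviation from the gene means, over tested genes above 0 in every library fitted together. The shift removed therefore need not equal the median change over all genes tested.

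With CD, RNA of both type IV collagen chains, of all 3 chains of the parietal endoderm laminin and of Pth1r rose, while that of Nid1 and Hspg2, which connect the networks, fell. Col4a1 stood at 105 and 111 TPM with DMSO and at 422 and 454 TPM with CD. Both CD libraries lay above both DMSO libraries, and the log2 change was 2.01 ± 0.06 in the deposited values and 1.80 ± 0.04 relative to the median gene (limma adjusted p = 1.4e-05 and 2.41e-05). Col4a2 went from 84.7 and 89.3 TPM to 316 and 346 TPM, again without overlap (1.92 ± 0.06 in the deposited values, 1.71 ± 0.04 relative to the median gene; limma adjusted p = 1.64e-05 and 2.54e-05).

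Of the laminin chains, Lama1, the alpha chain found in few adult tissues, stood at 22.6 and 23.7 TPM with DMSO and at 77.4 and 81.2 TPM with CD. Lamb1, the beta chain, went from 64.6 and 67.1 to 134 and 137 TPM. Lamc1, the gamma chain shared by most laminins, went from 31.0 and 32.5 to 81.5 and 80.8 TPM. The groups did not overlap for any of the 3 chains. The log2 changes were 1.73 ± 0.06, 1.03 ± 0.05 and 1.33 ± 0.06 as deposited, and 1.53, 0.82 and 1.12 relative to the median gene, so the alpha chain changed most of the 3 on either scale.

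Nid1, which encodes nidogen-1, the protein that binds the laminin gamma chain and type IV collagen, fell from 102 and 106 TPM with DMSO to 56.3 and 55.4 TPM with CD. Both CD libraries lay below both DMSO libraries, and the log2 change was -0.88 ± 0.05 in the deposited values and -1.09 ± 0.04 relative to the median gene (limma adjusted p = 6.81e-05 and 3.8e-05). Hspg2, which encodes the heparan sulfate proteoglycan perlecan, fell less, from 30.8 and 32.9 to 24.9 and 25.5 TPM (-0.33 ± 0.06 in the deposited values, -0.53 ± 0.04 relative to the median gene). Sparc was the most abundant of the 10 genes, at 599 and 619 TPM with DMSO and 743 and 756 TPM with CD. Its rise was small, 0.30 ± 0.05 in the deposited values and 0.09 ± 0.03 relative to the median gene (limma adjusted p = 0.00223 and 0.0368), and its direction flipped to -0.11 under quantile normalization.

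Dab2 stood at 8.44 and 8.79 TPM with DMSO and at 9.32 and 9.41 TPM with CD, and did not pass (0.11 ± 0.07 in the deposited values, -0.08 relative to the median gene; limma adjusted p = 0.22 and 0.257). Pth1r stood at 26.4 and 28.6 TPM with DMSO and at 115 and 118 TPM with CD, with no overlap and a log2 change of 2.05 ± 0.06 (1.84 ± 0.04 relative to the median gene, limma adjusted p = 2.41e-05). Myl3, which overlaps Pth1r on the other strand, stood at 5.14 and 6.85 TPM with DMSO and 53.5 and 55.7 TPM with CD, and its part in the Pth1r value was not tested. In all, 7 of the 10 genes were called higher and 2 lower on both scales. Of the 13006 genes tested, 43.1% were called higher and 19.5% lower as deposited, and 30.5% and 31.1% relative to the median gene. The median log2 change of the 10 genes was 1.18, beside 0.18 over all genes tested. Apart from that of Sparc under quantile normalization, these calls kept their direction and their side of the threshold under every alternative tried.

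**Figure D1:**
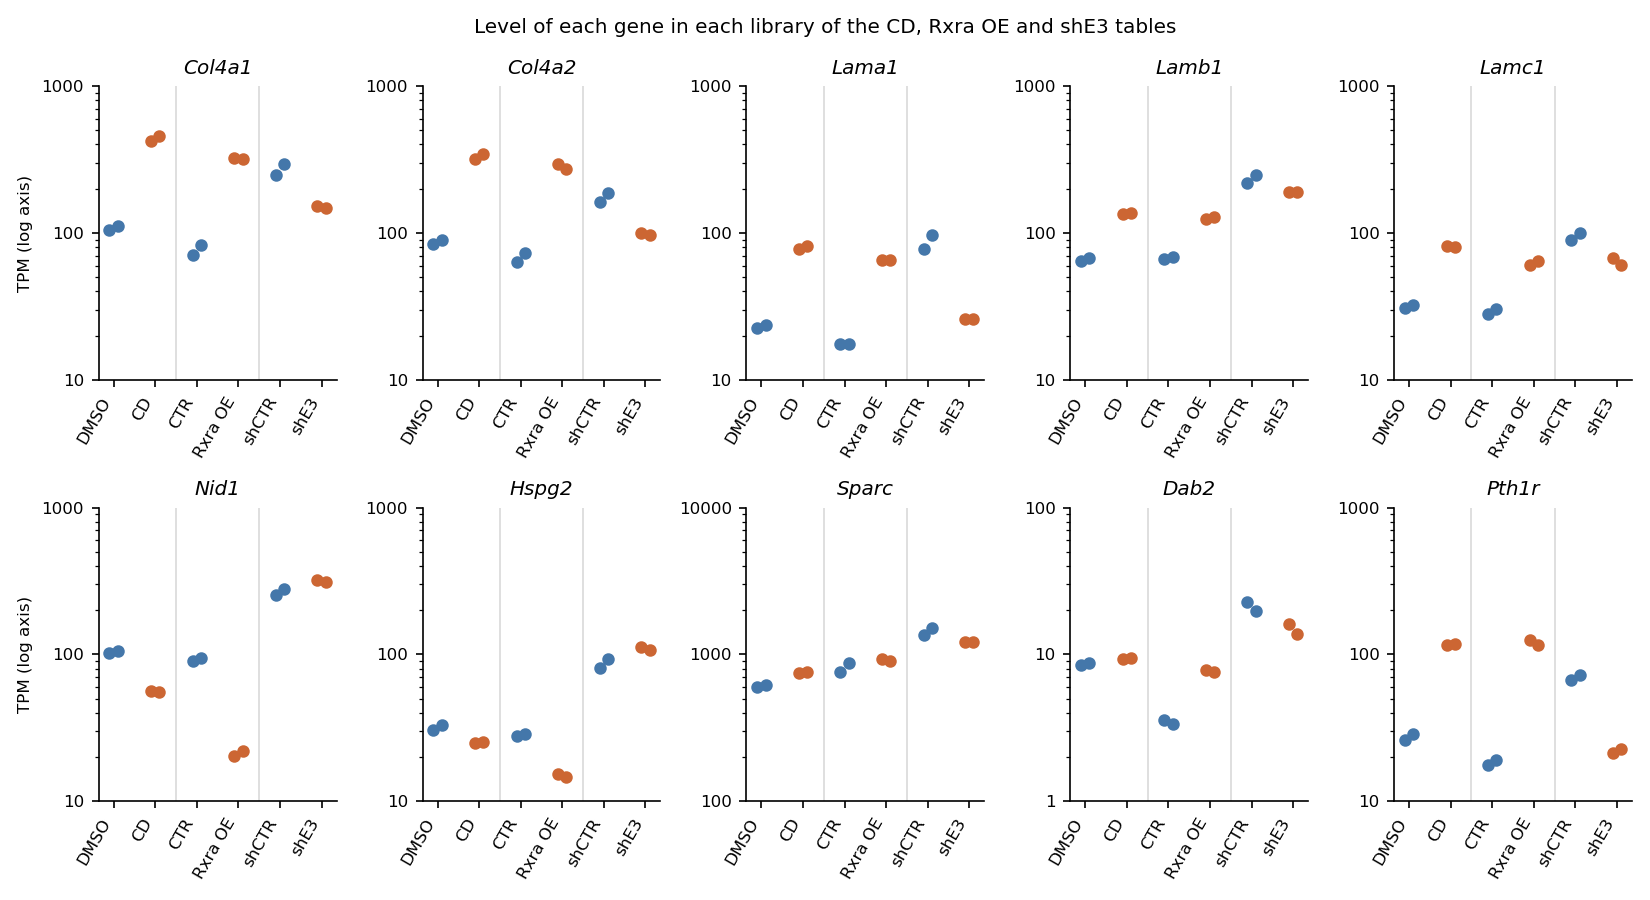
Level of each of the 10 genes (TPM, log axis) in every library of the CD, Rxra OE and shE3 tables, with 1 panel per gene, 1 point per library, control groups in blue and treated groups in orange. In the Pth1r panel the CD libraries (115 and 118) stand far above the DMSO libraries (26.4 and 28.6) and the shE3 libraries (21.5 and 22.9) below the shCTR libraries (66.7 and 72.6); Nid1 shows the reverse order in the CD and Rxra OE tables. Tables were normalized separately, so points are compared within a pair of groups only.

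With Rxra OE, both collagen IV chains, the 3 laminin chains, Dab2 and Pth1r stood above their controls as deposited, and Nid1 and Hspg2 fell. Col4a1 stood at 70.7 and 82.7 TPM in CTR and at 325 and 320.0 TPM with Rxra OE. Col4a2 went from 63.2 and 73.2 TPM to 293 and 272 TPM. The groups did not overlap for either chain, and the log2 changes were 2.06 ± 0.11 and 2.04 ± 0.11 in the deposited values. Relative to the median gene they were 1.32 and 1.29 (limma adjusted p = 2.05e-05 and 2.74e-05). The median log2 change over all genes tested was 0.62 as deposited.

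Lama1 stood at 17.5 and 17.4 TPM in CTR and at 65.3 and 65.4 TPM with Rxra OE (1.85 ± 0.08 in the deposited values, 1.12 ± 0.07 relative to the median gene). Lamb1 went from 66.6 and 69.0 to 124 and 129 TPM, and Lamc1 from 28.3 and 30.2 to 60.7 and 64.2 TPM. None of these groups overlapped. As deposited both rose (0.89 ± 0.09 and 1.07 ± 0.09, limma adjusted p = 0.000124 and 6.58e-05), but relative to the median gene Lamc1 kept 0.34 ± 0.06 and Lamb1, at 0.15 ± 0.06, no longer passed (limma adjusted p = 0.00332 and 0.0588). Within the laminin trimer the alpha chain was again the one with the greatest change.

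Nid1 fell from 90.5 and 95.2 TPM in CTR to 20.5 and 21.9 TPM with Rxra OE, with a log2 change of -2.08 ± 0.09 in the deposited values and -2.81 ± 0.06 relative to the median gene (limma adjusted p = 9.35e-06 and 7.88e-06). Hspg2 fell from 27.9 and 28.9 to 15.5 and 14.6 TPM (-0.88 ± 0.09 in the deposited values, -1.59 ± 0.06 relative to the median gene). For both genes each Rxra OE library lay below each CTR library. Sparc stood at 759 and 873 TPM in CTR and at 932 and 902 TPM with Rxra OE. It did not pass as deposited (0.17 ± 0.12, limma adjusted p = 0.212), passed as higher without CTR replicate 2 (0.27, adjusted p = 0.00954 by limma), and was lower relative to the median gene (-0.58 ± 0.06, limma adjusted p = 0.00045), so its direction depended on the scaling.

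Dab2 rose from 3.58 and 3.37 TPM in CTR to 7.89 and 7.58 TPM with Rxra OE (0.97 ± 0.09 in the deposited values and 0.34 ± 0.09 relative to the median gene, limma adjusted p = 8.23e-05 and 0.0186). Pth1r rose from 17.7 and 19.2 to 126 and 116 TPM (2.65 ± 0.09 and 1.92 ± 0.06, limma adjusted p = 8.94e-06 and 1.02e-05). Both groups were apart for both genes. The overlapping Myl3 went from 1.79 and 1.49 to 36.5 and 35.7 TPM. As deposited 7 of the 10 genes were called higher and 2 lower, but 68.6% of the 13305 genes tested were called higher there and 14.0% lower, so the share of higher calls is near the background. Relative to the median gene 6 were called higher and 3 lower, where 35.1% and 35.5% of all genes were. The median log2 change of the 10 genes was 1.02 as deposited, where that of all genes was 0.62.

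With knockdown of Exosc3 the direction was the opposite for most of these genes. Col4a1 stood at 247 and 294 TPM in shCTR and at 153 and 148 TPM in shE3. Col4a2 went from 162 and 188 to 99.7 and 96.7 TPM. Neither pair of groups overlapped, and the log2 changes were -0.83 ± 0.11 and -0.82 ± 0.10 (limma adjusted p = 0.000364 and 0.000323). Lama1 fell from 77.9 and 96.3 TPM to 26.0 and 26.0 TPM, a log2 change of -1.70 ± 0.12 (limma adjusted p = 8.73e-06). Lamc1 fell from 90.3 and 100.5 to 67.4 and 60.3 TPM (-0.57 ± 0.10, limma adjusted p = 0.00365), a call that was lost without shE3 replicate 2 (-0.49, adjusted p = 0.122 by limma). Lamb1, at 218 and 249 TPM in shCTR and 189.9 and 191 TPM in shE3, lay lower in both shE3 libraries but did not pass (-0.29 ± 0.10, limma adjusted p = 0.0687); it passed without shCTR replicate 1 (-0.39, adjusted p = 0.00584 by limma) or 2 (-0.19, adjusted p = 0.0474).

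Nid1 and Hspg2 did not follow the laminin chains down. Nid1 stood at 255 and 279.5 TPM in shCTR and at 320.4 and 309 TPM in shE3, higher in both shE3 libraries without passing (0.24 ± 0.10, limma adjusted p = 0.114; 0.30, adjusted p = 0.0113, without shCTR replicate 2). Hspg2 stood at 81.2 and 92.5 TPM in shCTR and at 112 and 107 TPM in shE3. It was called higher (0.33 ± 0.10, limma adjusted p = 0.0439), close to the threshold: the call was lost without shE3 replicate 1 (0.30, adjusted p = 0.475 by limma), without shE3 replicate 2 (0.37, adjusted p = 0.312) and with the replicate number as a block (adjusted p = 0.102). Sparc stood at 1354 and 1509 TPM in shCTR and at 1218 and 1216 TPM in shE3 and did not pass (-0.23 ± 0.10, limma adjusted p = 0.15; -0.31, adjusted p = 0.00645, without shCTR replicate 1). Relative to the median gene, Lamb1, Nid1 and Sparc passed in these directions, while Dab2 no longer did. The median log2 change over all genes tested was -0.04 as deposited.

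Dab2 stood at 22.8 and 19.7 TPM in shCTR and at 16.1 and 13.9 TPM in shE3 (-0.48 ± 0.13, limma adjusted p = 0.0249), which no longer passed without shE3 replicate 2 (-0.38, adjusted p = 0.282 by limma) or without shCTR replicate 1 (-0.38, adjusted p = 0.085), relative to the median gene (-0.44, adjusted p = 0.0614) or under quantile normalization (-0.40, adjusted p = 0.0874). Pth1r fell from 66.7 and 72.6 TPM to 21.5 and 22.9 TPM (-1.61 ± 0.10, limma adjusted p = 6.32e-06), with the shE3 libraries far below the shCTR libraries. Myl3 went from 18.5 and 25.6 to 5.02 and 3.32 TPM. In all, 6 of the 10 genes were called lower and 1 higher, where 12.3% and 4.85% of the 15700 genes tested were. The median log2 change of the 10 genes was -0.52, beside -0.04 over all genes. With no filter on low values the table gave only 2 calls over all genes by limma, and none of the 10 genes passed, whereas with the filter 10 of the 10, and 4959 of the 15700 genes, had an unadjusted p below 0.05. Leaving out 1 library moved the 761 higher calls over all genes to 253 or 302 (without shE3 replicate 1 or 2) and to 1816 (without shCTR replicate 2). The 1934 lower calls became 1263 without shCTR replicate 2.

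**Figure D2:**
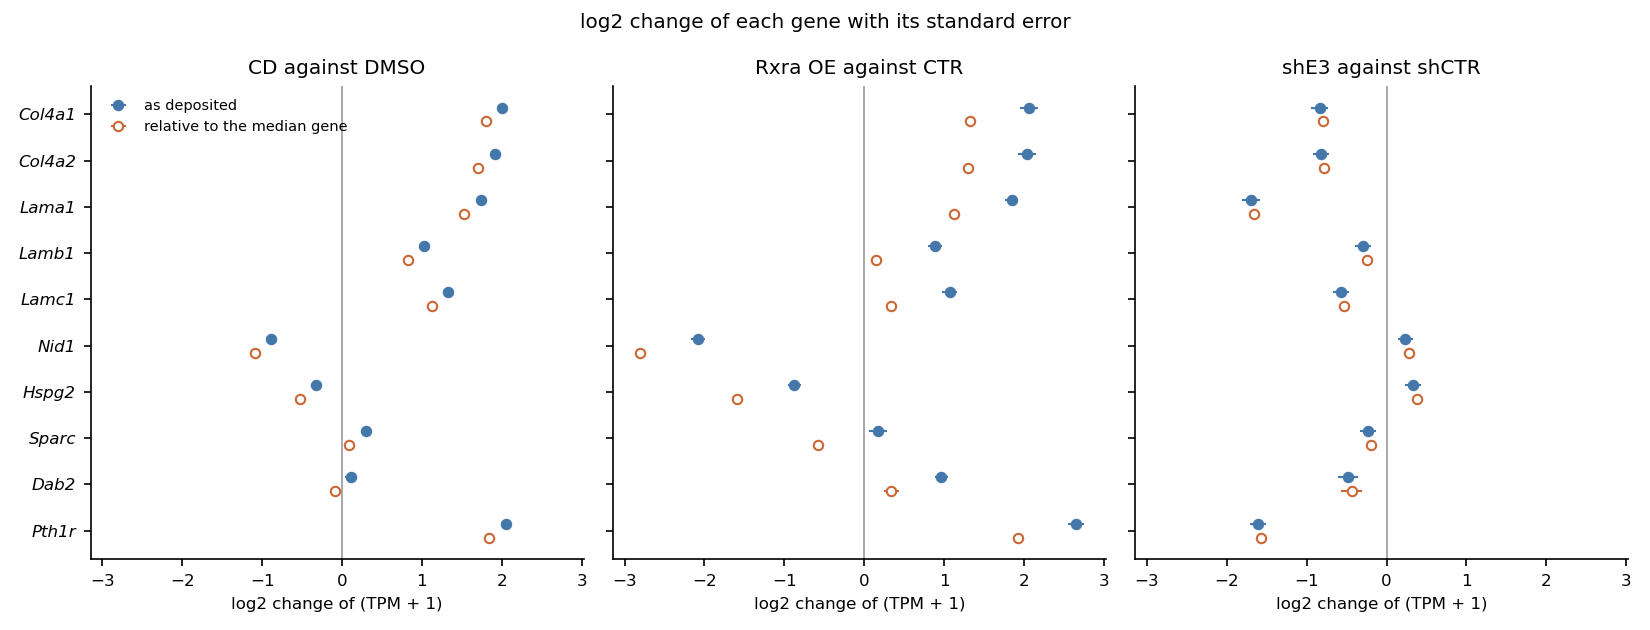
log2 change of (TPM + 1) of each gene, with its standard error as a bar, in the CD, Rxra OE and shE3 comparisons (n = 2 libraries per group); filled blue points are values as deposited and open orange points are relative to the median gene. Col4a1, Col4a2, Lama1, Lamc1 and Pth1r lie right of 0 in the first 2 panels and left of 0 in the third, Nid1 and Hspg2 do the reverse, and Sparc in the Rxra OE panel lies at 0.17 as deposited and at -0.58 relative to the median gene.

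Because TPM is per transcript length, levels of partner genes can be set against each other within a library, where a scaling factor cancels. Laminin and collagen IV chains together summed to 308 and 324 TPM with DMSO and 1032 and 1098 TPM with CD, while Nid1 and Hspg2 together went from 133 and 139 TPM to 81.2 and 80.9 TPM. The ratio of Nid1 to Lamc1, the chain nidogen binds, was 3.29 and 3.26 with DMSO and 0.690 and 0.686 with CD. It was 3.199 and 3.15 in CTR and 0.338 and 0.342 with Rxra OE. In the shE3 table it went the other way, from 2.82 and 2.78 in shCTR to 4.75 and 5.12 in shE3. The ratio of Hspg2 to Lamc1 moved alike: it was 0.994 and 1.01 with DMSO against 0.3055 and 0.3155 with CD, and 0.900 and 0.921 in shCTR against 1.67 and 1.77 in shE3. No test was applied to the ratios.

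The ratio of the collagen chains moved little in the CD, Rxra OE and shE3 tables. Col4a2 stood at 0.809 and 0.802 of Col4a1 with DMSO and at 0.750 and 0.763 with CD, at 0.894 and 0.885 in CTR and 0.901 and 0.849 with Rxra OE, and at 0.656 and 0.637 in shCTR and 0.652 and 0.652 in shE3. The CD libraries lay slightly below the DMSO libraries, and in the Rxra OE and shE3 tables treated and control libraries overlapped. Among end-point cells it varied more, at 0.724 and 0.756 in MEF and 0.436 and 0.438 in R1 cells. It was 0.577 and 0.575 in DMSO-iPSC and 0.503 and 0.453 in CD-iPSC, without overlap. The ratio of Lama1 to Lamc1 did move: it was 0.728 and 0.730 with DMSO and 0.950 and 1.005 with CD, 0.617 and 0.577 in CTR and 1.08 and 1.02 with Rxra OE, and 0.8625 and 0.958 in shCTR and 0.386 and 0.431 in shE3. Treated and control libraries were apart in all 3 tables for this ratio, in opposite order in the shE3 table.

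**Figure D3:**
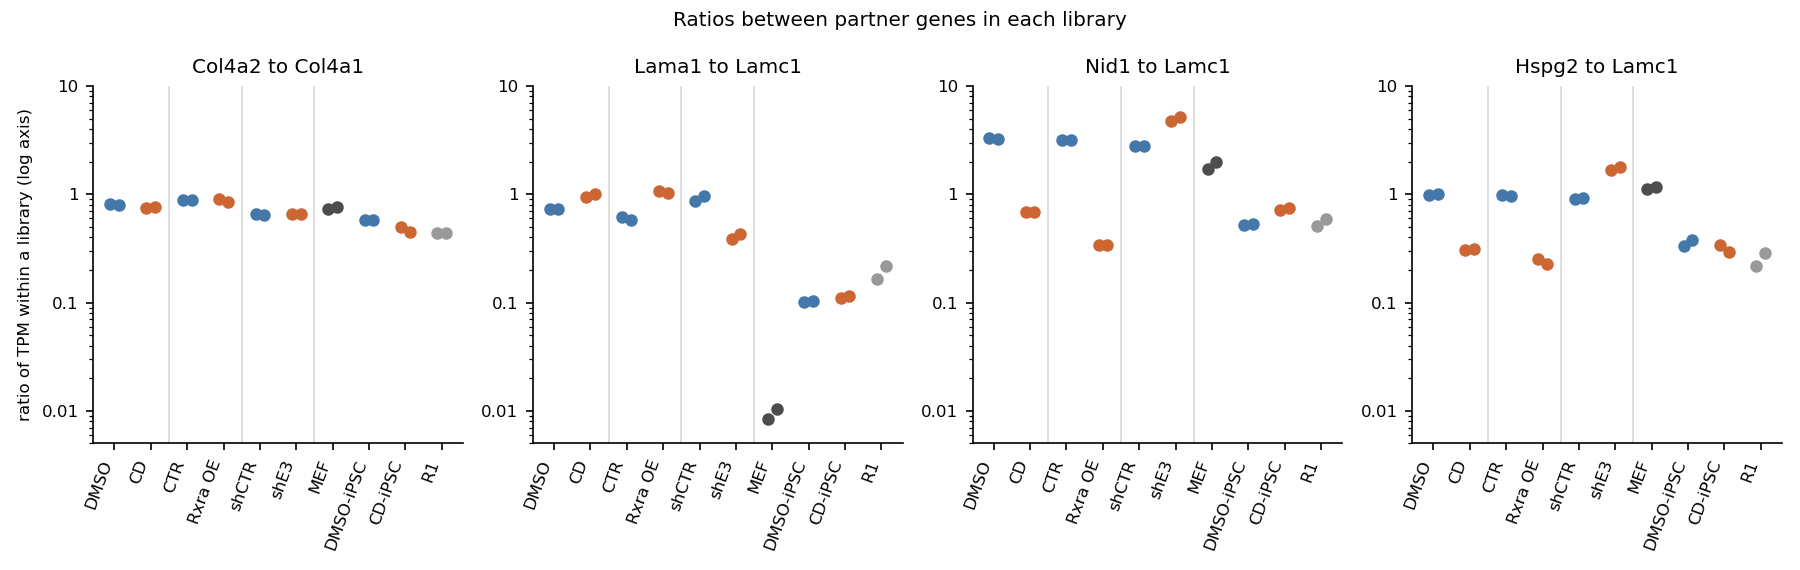
Ratio of TPM between partner genes in each library (log axis), with 1 point per library, for the CD, Rxra OE and shE3 tables and for the MEF, iPSC and R1 table; control groups are blue, treated groups and CD-iPSC orange, MEF dark grey and R1 light grey. The collagen IV ratio runs from 0.436 in R1 cells to 0.901 with Rxra OE. Nid1 to Lamc1 spans more, from 0.338 with Rxra OE to 5.12 in shE3, and Lama1 to Lamc1 is lowest in MEF (0.00840 and 0.0104).

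Other genes of the same matrix and its handling moved in both directions. Of 25 further basement membrane components 16 passed the filter in the CD table, with 6 called higher, 6 lower and 4 neither (median log2 change -0.13). With Rxra OE, 10 of 16 were called higher and 6 lower as deposited, and 7 and 7 relative to the median gene. The higher calls were near the shares of all genes, 68.6% and 35.1%. With shE3, 21 were tested, with 2 higher, 4 lower and 15 not passing. Of all genes 43.1% were called higher and 19.5% lower with CD, and 4.85% and 12.3% with shE3. Summed, the 25 genes went from 570 and 611 TPM with DMSO to 525 and 547 TPM with CD. They went from 311 and 366 to 379 and 368 TPM with Rxra OE, and from 781 and 901 to 974 and 963 TPM with shE3. The gene named next therefore does not stand for the list. Agrn, which encodes the basement membrane proteoglycan agrin, stood at 20.2 and 20.96 TPM with DMSO and 55.5 and 57.4 TPM with CD (1.41 ± 0.06, limma adjusted p = 2.58e-05). It went from 10.4 and 12.7 to 59.3 and 60.4 TPM with Rxra OE and from 43.2 and 50.8 to 33.8 and 32.2 TPM with shE3 (2.29 ± 0.11 and -0.49 ± 0.11, limma adjusted p = 1.19e-05 and 0.0125).

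Of 16 genes for folding, modification and secretion of collagen IV and laminin, 7 were called higher and 5 lower with CD, 10 and 3 with Rxra OE as deposited (relative to the median gene, 5 and 11), and 0 and 3 with shE3 (limma; 13 did not pass). Of all genes 43.1% were called higher and 19.5% lower with CD, 68.6% and 14.0% with Rxra OE as deposited, and 4.85% and 12.3% with shE3. Relative to the median gene 35.1% of all genes were called higher and 35.5% lower with Rxra OE. The higher calls with CD and with Rxra OE were thus near the background. The lower calls with CD, and with Rxra OE relative to the median gene, were above it. P4ha2, a subunit of collagen prolyl 4-hydroxylase, went from 48.0 and 48.7 to 126 and 129 TPM with CD (1.38 ± 0.05, limma adjusted p = 2.15e-05) and from 98.4 and 122 to 47.6 and 50.1 TPM with shE3 (-1.15 ± 0.12, limma adjusted p = 8.67e-05). Plod2, a collagen lysyl hydroxylase, went from 12.7 and 13.3 to 47.3 and 45.7 TPM with CD (1.77 ± 0.06, limma adjusted p = 1.97e-05) and from 48.7 and 51.0 to 24.0 and 23.6 TPM with shE3 (-1.04 ± 0.10, limma adjusted p = 7.98e-05). Genes outside the 10 were named for a large change without overlap between groups, so both features follow from the choice. Of 12 receptors for basement membrane, 10 were tested with CD, with 3 higher and 5 lower, and 12 with shE3, with 3 higher and 2 lower. Summed, the 12 receptors went from 364 and 388 to 318 and 326 TPM with CD, and from 331 and 360 to 294 and 290 TPM with Rxra OE. With shE3 they went from 1164 and 1311 to 1539 and 1484 TPM. Itga3, an integrin alpha chain that binds laminin, was 1 of the 3 called higher with CD and does not stand for the list. It went from 9.30 and 10.1 to 18.6 and 18.9 TPM with CD (0.89 ± 0.07, limma adjusted p = 0.000153).

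Among 6 endocytic receptors and partners that Dab2 serves, 3 were called higher and 2 lower with CD, 3 and 1 with Rxra OE and 0 and 3 with shE3 (limma, where 3 did not pass). The shares over all genes as deposited were 43.1% higher and 19.5% lower with CD and 68.6% and 14.0% with Rxra OE. With shE3 they were 4.85% and 12.3%. The higher calls with CD and with Rxra OE were thus near or below the background. Lrp1, a large receptor of the LDL receptor family, fell from 82.4 and 86.2 to 46.3 and 46.6 TPM with CD (-0.85 ± 0.06, limma adjusted p = 8.24e-05). Lrp2, which encodes megalin, went from 6.85 and 8.42 to 2.78 and 2.65 TPM with shE3 (-1.21 ± 0.16, limma adjusted p = 0.000452). Of the genes for PTH1R ligands and its G protein, Pth was listed at 0 in every library of the 3 tables, and 2 of 4 genes passed the filter in each. Gnas, which encodes the stimulatory G protein alpha subunit, stood at 377 and 408 TPM with DMSO and 269 and 347 TPM with CD (-0.36 ± 0.12, limma adjusted p = 0.0369). With CD, Gnas therefore lay below its controls and Pth1r above them. The 4 genes of this list summed to 328 and 364 TPM in CTR and 335 and 345 TPM with Rxra OE, which overlapped. They summed to 459 and 530 TPM in shCTR and 631 and 534 TPM in shE3. Relative to the median gene the changes with CD were 1.21 for Agrn, 1.17 for P4ha2, 1.56 for Plod2, 0.69 for Itga3, -1.05 for Lrp1 and -0.57 for Gnas. That of Agrn with Rxra OE was 1.57.

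Markers of endoderm and of other cell types moved in the same comparisons, and their part in the results was not tested. Beside the marker counts, 43.1% of all genes were called higher and 19.5% lower with CD as deposited. With Rxra OE the shares were 68.6% and 14.0% as deposited, and 35.1% and 35.5% relative to the median gene. With shE3 they were 4.85% and 12.3%. In bulk RNA, fewer cells of a type and less RNA per cell cannot be told apart. Of 8 XEN-like regulators 6 were tested with CD and all 6 were called higher, their summed level going from 132 to 158 TPM with DMSO to 588 to 607 TPM with CD. With Rxra OE 7 of 7 tested were called higher as deposited (82.8 to 98.6 TPM in CTR, 667 to 726 TPM with Rxra OE; 6 relative to the median gene), and with shE3 7 of 8 were called lower (246 to 276 TPM in shCTR, 79.95 to 85.0 TPM in shE3). Among them Gata4 went from 29.2 and 29.6 to 134 and 138 TPM with CD and from 47.8 and 53.2 to 12.8 and 13.7 TPM with shE3 (2.17 ± 0.05 and -1.85 ± 0.11, limma adjusted p = 1.28e-05 and 5.09e-06).

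Of 12 parietal endoderm markers other than the 10 genes, 6 were called higher and 6 lower with CD, so the label parietal endoderm was not borne out by that list as a whole. Among the 6 that rose were Sox17, an endoderm transcription factor that the XEN-like list also holds (55.6 and 76.9 to 329.8 and 303 TPM), and Krt19, a keratin of simple epithelia (43.8 and 46.3 to 174 and 187 TPM). The 6 that fell are not named here, so these examples do not stand for the list. With Rxra OE 8 were higher and 4 lower as deposited (relative to the median gene, 6 and 5), and with shE3 6 of 12 were lower and 0 higher by limma. All 7 visceral endoderm markers tested were called higher with CD (summed level 47.5 to 52.2 TPM with DMSO, 125 to 129.9 TPM with CD), and 5 of 8 were called lower with shE3 (71.4 to 84.3 TPM in shCTR, 24.7 to 26.5 TPM in shE3). The RNA of these cultures therefore held markers from both lists. The visceral endoderm list shares genes with the XEN-like regulators and with the endocytic receptors above, so its counts are not separate from theirs. Epithelial markers followed, with 7 of 7 higher with CD and with Rxra OE and 7 of 7 lower with shE3.

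Fibroblast markers went the other way in the first 2 tables, as Nid1 and Hspg2 did. Of 10 tested, 9 were called lower with CD (1248 to 1319.6 TPM summed with DMSO, 775 to 808 TPM with CD) and 10 with Rxra OE (1282 to 1434 TPM in CTR, 449 to 459 TPM with Rxra OE). With shE3 1 was higher and 1 lower (2269 to 2520 TPM in shCTR, 2322 to 2376 TPM in shE3). Smooth muscle and pericyte markers summed to 56.9 to 62.6 TPM with DMSO and 71.8 to 71.9 TPM with CD, endothelial markers to 16.3 to 17.5 TPM and 31.8 to 32.5 TPM, and macrophage markers to 6.40 to 7.41 TPM and 10.0 to 10.5 TPM. In the Rxra OE table smooth muscle and pericyte markers went from 163 to 187 TPM in CTR to 84.9 to 86.0 TPM. In the shE3 table macrophage markers stood at 148 to 179 TPM in shCTR and 360.1 to 362 TPM in shE3, with 1 of 7 tested called higher. Pluripotency markers summed to at most 5.36 TPM in the CD table, where Pou5f1 was listed at 0 in every library.

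Before actinomycin D, at 0 h, CD cultures again held more Pth1r and less Nid1 RNA than DMSO cultures, but no collagen or laminin chain passed. Pth1r stood at 188 and 139.7 CPM with DMSO and 466 and 369 CPM with CD, with no overlap (1.35 ± 0.22 in the deposited values, 1.19 ± 0.17 relative to the median gene; limma adjusted p = 0.00649 and 0.00304); without DMSO 0 h replicate 2 it missed the threshold (1.13, adjusted p = 0.0678 by limma). Nid1 stood at 674 and 798 CPM with DMSO and at 284 and 392 CPM with CD (-1.13 ± 0.16 in the deposited values, -1.29 ± 0.22 relative to the median gene; limma adjusted p = 0.00397 and 0.00617). Col4a1 stood at 2900.3 and 3168 CPM with DMSO and at 3142 and 5635 CPM with CD, so the groups overlapped (0.47 ± 0.25 in the deposited values, 0.31 ± 0.34 relative to the median gene; limma adjusted p = 0.184 and 0.517). The 2 CD 0 h libraries were far apart: Sparc stood at 1981 CPM in replicate 1 and 3366 CPM in replicate 2, Lamc1 at 815 and 1425 CPM, and the ERCC spike-ins at 1267 and 1849 CPM. XEN-like regulators summed to 3682 and 1648 CPM in these libraries and to 943 and 429 CPM in DMSO at 0 h, and their part in these values was not tested.

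Without CD 0 h replicate 1, Col4a1, Col4a2 and Lama1 were called higher (0.89, 0.87 and 0.62, limma adjusted p = 0.0245, 0.0217 and 0.0147), and without CD 0 h replicate 2 Hspg2 and Sparc were called lower (-0.84 and -0.75, adjusted p = 0.00306 and 0.0167 by limma). Col4a1, Col4a2 and Lama1 also passed on libraries scaled to the ERCC spike-ins, where the log2 changes were 0.70 ± 0.13, 0.71 ± 0.11 and 0.63 ± 0.09 (limma adjusted p = 0.0351, 0.022 and 0.0171). In the deposited values, and also relative to the median gene, 1 of the 10 genes was called higher and 1 lower, and with the ERCC scaling 4 and 1. Of the 17064 genes tested as deposited 8.22% were called higher and 6.41% lower, relative to the median gene 6.77% and 9.27%, and with the ERCC scaling 0.599% and 1.08% of 17183. Each of the 4 libraries weighed heavily on these counts. The 1402 higher and 1093 lower calls as deposited became 143 and 326 without CD 0 h replicate 1 and 3871 and 2243 without CD 0 h replicate 2. They became 3232 and 1456 without DMSO 0 h replicate 1 and 35 and 199 without DMSO 0 h replicate 2. With the replicate number as a block they were 819 and 848. Each of the 10 genes had many reads in this table, from 343 for Dab2 in a DMSO 8 h library to 109847 for Col4a1 in a CD 4 h library.

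Under actinomycin D the 10 genes differed in how their level changed. CPM is a share of each library, so a gene whose RNA lasts longer than that of others rises in it. Some means also stood above the 0 h mean with the ERCC scaling. At 8 h that of Nid1 was 185.5% with CD and 133.6% with DMSO. That of Sparc was 146.1% with CD and 91.6% with DMSO. The cause of such rises was not tested. Pth1r kept the smallest share of its 0 h level: in the DMSO arm it went from 188 and 139.7 CPM at 0 h through 117.5 and 127 CPM at 4 h to 41.6 and 69.6 CPM at 8 h, and in the CD arm from 466 and 369 through 263 and 250.4 to 135 and 143 CPM. The mean at 8 h was 33.9% of that at 0 h in the DMSO arm and 33.3% in the CD arm, and with the ERCC scaling 27.8% and 25.3%. The 8 h libraries lay below the 0 h libraries in both arms (-1.57 ± 0.22 in each, limma adjusted p = 0.00365 with DMSO and 0.0027 with CD; -1.15 and -1.20 relative to the median gene). Myl3, by comparison, stood at 45.5 and 89.8 CPM at 0 h and 68.2 and 71.5 CPM at 8 h in the CD arm, and at 35.3 and 35.1 CPM and 16.6 and 15.3 CPM in the DMSO arm.

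Dab2 also fell as deposited, to 56.2% with DMSO (45.7 and 38.4 CPM at 0 h, 20.6 and 26.7 CPM at 8 h) and to 69.6% with CD (58.7 and 47.4 CPM, then 38.1 and 35.7 CPM). The log2 changes were -0.81 ± 0.18 and -0.50 ± 0.18 (limma adjusted p = 0.0115 and 0.0357). Over all genes tested the median log2 change was -0.33 with DMSO and -0.34 with CD. Relative to the median gene neither change of Dab2 passed (-0.40 and -0.14, limma adjusted p = 0.0521 and 0.404). The calls were also lost without DMSO 0 h replicate 1 or DMSO 8 h replicate 1 (adjusted p = 0.0908 and 0.107 by limma) and without CD 0 h replicate 1 or either CD 8 h replicate (adjusted p = 0.204, 0.0968 and 0.15). Lama1 stood at 62.9% at 8 h with DMSO (1000.4 and 1046 to 658 and 629 CPM; -0.67 ± 0.15, limma adjusted p = 0.0115; 0.0681 and 0.083 without replicate 1 of 0 h or of 8 h) and at 93.4% with CD (-0.08 ± 0.15, adjusted p = 0.657). The DMSO call of Lama1 was lost relative to the median gene (-0.24 ± 0.20, limma adjusted p = 0.363), by edgeR (-0.28, adjusted p = 0.304) and by DESeq2 (-0.23, adjusted p = 0.367).

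Nid1 rose in share in both arms, from 674 and 798 to 1262 and 1099 CPM with DMSO and from 284 and 392 to 804 and 764 CPM with CD. All 8 h libraries lay above the 0 h libraries of their arm (0.68 ± 0.16 and 1.23 ± 0.16, limma adjusted p = 0.014 and 0.0027), also with the ERCC scaling (0.42 ± 0.09 and 0.89 ± 0.09, limma adjusted p = 0.0375 and 0.00358). Without DMSO 0 h replicate 1 or DMSO 8 h replicate 1 the DMSO call was lost (adjusted p = 0.109 and 0.123 by limma), as it was under quantile normalization (0.37, adjusted p = 0.0864). Hspg2 went from 668 and 601 to 934 and 821 CPM with DMSO, which did not pass (0.47 ± 0.18, limma adjusted p = 0.0686), and from 354 and 533 to 695 and 627 CPM with CD, which did (0.60 ± 0.18, limma adjusted p = 0.0157; 0.0934 without CD 0 h replicate 1 and 0.101 without CD 8 h replicate 1). Relative to the median gene both genes passed as higher in both arms. With the ERCC scaling Hspg2 passed in neither (0.20 ± 0.13 with DMSO and 0.26 ± 0.13 with CD, limma adjusted p = 0.246 and 0.107). Under quantile normalization its CD call was lost too (0.33, adjusted p = 0.126 by limma).

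The collagen chains, Lamb1 and Lamc1 passed in neither arm as deposited, although without CD 0 h replicate 2 all 4 were called higher in the CD arm (0.55 to 0.83, limma adjusted p = 0.00172 to 0.0136), and relative to the median gene Lamb1 and Lamc1 were (0.68 and 0.80, limma adjusted p = 0.031 and 0.0358). Col4a1 went from 2900.3 and 3168 CPM at 0 h to 4138 and 3776 CPM at 4 h and 2517 and 1854 CPM at 8 h with DMSO, leaving 72.0% at 8 h, and in the CD arm to 5289 and 5922 CPM at 4 h and 5058 and 4844 CPM at 8 h, 112.8% of the 0 h mean. In both arms its mean was highest at 4 h. With CD, however, a 0 h library (5635 CPM) lay above a 4 h library (5289 CPM), and changes at 4 h were not tested. With the ERCC scaling all 5 collagen IV and laminin chains were called lower at 8 h in the DMSO arm, Col4a1 at 59.7% and Lama1 at 52.1% of the 0 h mean (-0.76 ± 0.13 and -0.94 ± 0.09, limma adjusted p = 0.0275 and 0.00469), and only Lama1 of the 5 was in the CD arm (74.5%; -0.42 ± 0.09, limma adjusted p = 0.0114). Sparc went from 1981 and 3366 to 4834 and 4742 CPM with CD (0.89 ± 0.25, limma adjusted p = 0.0123), but without CD 0 h replicate 1 the adjusted p was 0.0699 by limma, and 0.0636 and 0.0567 without CD 8 h replicate 1 or 2.

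In counts, with DMSO 1 of the 10 genes was called higher and 3 lower at 8 h (3.73% and 27.2% of all genes in the deposited values), 2 and 1 relative to the median gene (17.0% and 13.4%), and 1 and 7 with the ERCC scaling (0.594% and 16.8%). With CD 3 were called higher and 2 lower (13.2% and 41.3%), 5 and 1 relative to the median gene (24.7% and 29.4%), and 2 and 3 with the ERCC scaling (5.42% and 46.2%). Over all genes the 637 higher and 4645 lower calls with DMSO became 72 and 339 without DMSO 0 h replicate 1 and 64 and 241 without DMSO 8 h replicate 1. With CD the 2245 higher and 7045 lower became 967 and 3696 without CD 0 h replicate 1, and the higher calls 1148 and 1245 without CD 8 h replicate 1 or 2. The difference of the 8 h change between arms passed for none of the 10 genes by limma, although 4 had an unadjusted p below 0.05 as deposited, 0 relative to the median gene and 7 with the ERCC scaling. On these scales 1939 of 17064, 2119 of 17064 and 1134 of 17183 genes had one. Over all genes the difference passed for 1 as higher (0.00586%) and 0 as lower (0.0%). All 10 differences lay at 0 or above as deposited, from 0.0029 ± 0.31 for Pth1r to 0.79 ± 0.32 for Lamc1 (limma adjusted p = 0.997 and 0.423). Without CD 0 h replicate 2, 7 of the 10 passed as higher, among them Lamc1 (1.20, adjusted p = 0.0337 by limma) and Col4a1 (1.14, adjusted p = 0.0359), so that 1 library decides this comparison. edgeR and DESeq2 on the recovered reads also called 0 of the 10.

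**Figure D4:**
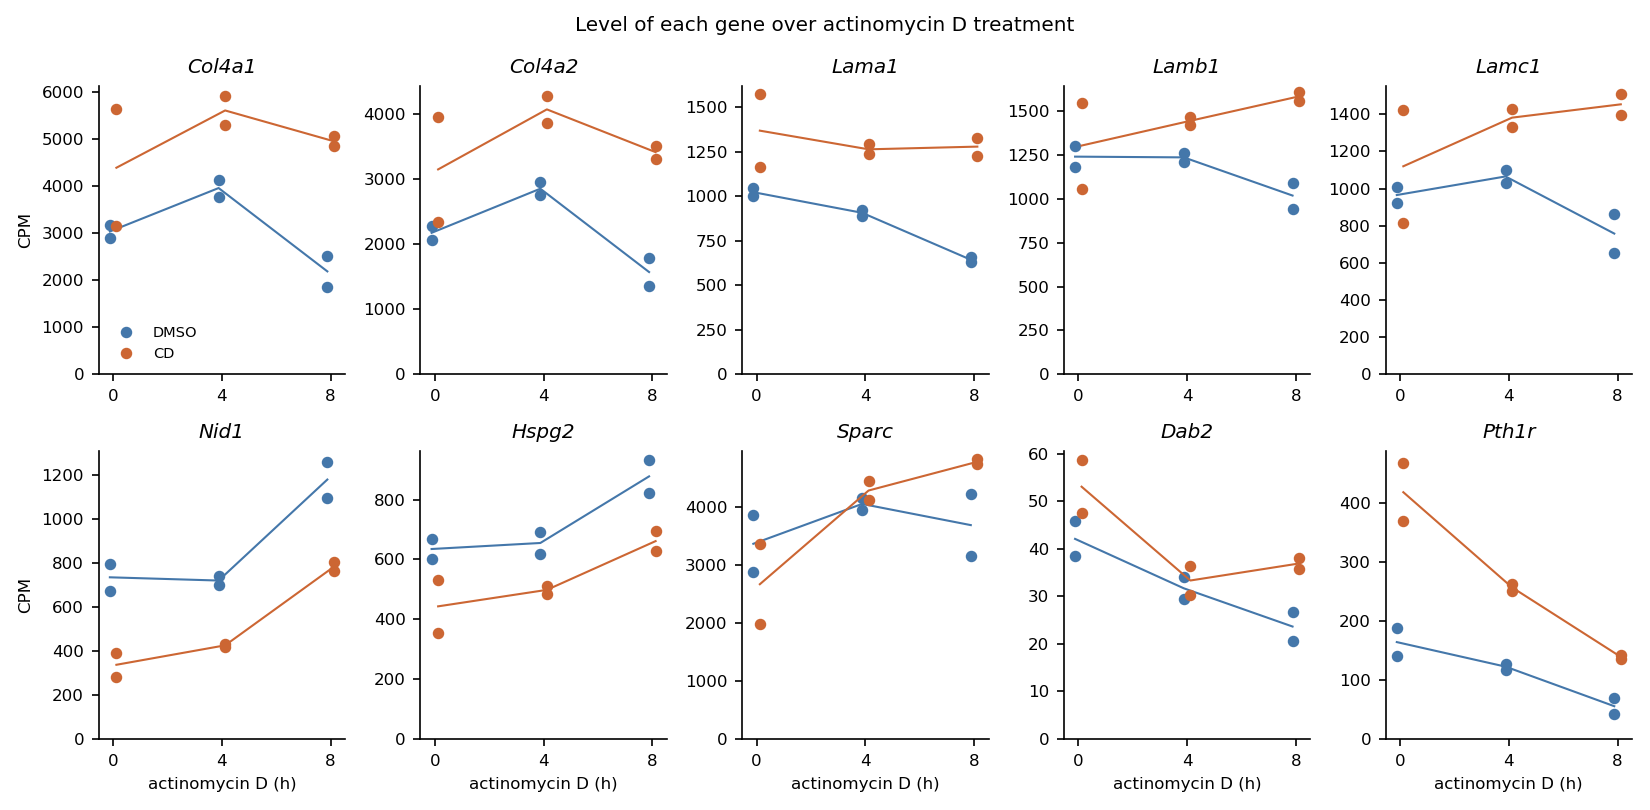
CPM of each gene at 0, 4 and 8 h of actinomycin D, with 1 point per library and a line through the mean of the 2 libraries, DMSO in blue and CD in orange; axes start at 0. From 0 to 8 h the means of Pth1r, Dab2 and Lama1 go down and those of Nid1, Hspg2 and Sparc up in both arms. The means of Col4a1, Col4a2, Lamb1 and Lamc1 go down with DMSO and up with CD. At 4 h Dab2 with CD is lower (33.3 CPM) than at 8 h (36.9 CPM), and Nid1 with DMSO (721 CPM) slightly lower than at 0 h (736 CPM). The 2 CD libraries at 0 h stand far apart for the collagen and laminin chains (3142 and 5635 CPM for Col4a1).

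Among end-point cells, MEF held far more RNA of most of these genes than either kind of iPSC, with the exceptions of Lama1 and Lamc1. Sparc stood at 4448 and 4508 TPM in MEF, 249.8 and 258 TPM in DMSO-iPSC, 257 and 238 TPM in CD-iPSC and 212 and 217 TPM in R1 cells. Col4a1 stood at 394 and 358 TPM in MEF, 31.0 and 35.0 in DMSO-iPSC, 24.2 and 22.3 in CD-iPSC and 28.7 and 30.7 in R1 cells. MEF lay above all other groups without overlap for both genes, and against DMSO-iPSC the log2 changes were -4.14 ± 0.09 and -3.47 ± 0.11 (limma adjusted p = 1.33e-07 and 5.54e-07). Dab2 stood at 94.2 and 80.8 TPM in MEF and at 1.75 to 2.95 TPM in the other groups, and Pth1r at 12.3 and 10.4 TPM in MEF and at 0.267 to 1.99 TPM elsewhere. The 10 genes summed to 5833 to 6021 TPM in MEF, of which Sparc alone made 4448 and 4508 TPM. The 8 XEN-like regulators summed to 4.15 to 5.76 TPM there. Within this table Sparc, Col4a1, Dab2 and Pth1r each stood highest in MEF. The part of those regulators in these levels was not tested.

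Lama1 ran against the rest. It stood at 1.19 and 0.976 TPM in MEF, 10.9 and 10.6 TPM in DMSO-iPSC, 10.05 and 9.70 TPM in CD-iPSC and 19.8 and 23.0 TPM in R1 cells. All iPSC and R1 libraries lay above both MEF libraries, with log2 changes of 2.50 ± 0.15 for DMSO-iPSC and 2.39 ± 0.15 for CD-iPSC (limma adjusted p = 8.14e-06 and 9.32e-06). It was the only one of the 10 genes called higher in iPSC than in MEF. Lama1 to Lamc1 was 0.00840 and 0.0104 in MEF and 0.1002 to 0.116 in the iPSC libraries, so the other laminin chains of MEF were not matched by this alpha chain. Lamc1 stood at 141 and 94.0 TPM in MEF, 109 and 102 in DMSO-iPSC, 91.6 and 83.6 in CD-iPSC and 120.3 and 105 in R1 cells. It did not pass in iPSC against MEF (-0.13 ± 0.19 and -0.39 ± 0.19, limma adjusted p = 0.567 and 0.0976), but was called lower without MEF replicate 2 (-0.42 and -0.68, adjusted p = 0.0407 and 0.00602 by limma). The first of these changes flipped to 0.015 relative to the median gene.

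Of the 10 genes 1 was called higher and 8 lower in DMSO-iPSC than in MEF, and the same counts held for CD-iPSC. Of the 17414 genes tested 31.4% and 36.2% were in DMSO-iPSC, and 33.3% and 35.4% in CD-iPSC. The comparisons share the MEF libraries. The smallest falls among the 8 in DMSO-iPSC were those of Nid1, from 242 and 187 TPM to 56.5 and 53.8 TPM in DMSO-iPSC and 65.9 and 62.2 TPM in CD-iPSC, and of Hspg2, from 158 and 110.2 TPM to 36.5 and 38.7 and to 31.2 and 24.6 TPM. Both still lay well below both MEF libraries (-1.93 ± 0.13 and -1.78 ± 0.19 in DMSO-iPSC, limma adjusted p = 1.34e-05 and 0.000136).

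CD-iPSC and DMSO-iPSC differed in 4 of the 10 genes. Col4a2 stood at 17.9 and 20.1 TPM in DMSO-iPSC and at 12.2 and 10.1 TPM in CD-iPSC (-0.72 ± 0.13, limma adjusted p = 0.00491), and Col4a1 was lower too (-0.49 ± 0.11, limma adjusted p = 0.013). Lamb1 stood at 26.3 and 25.9 TPM in DMSO-iPSC and at 43.0 and 40.2 TPM in CD-iPSC (0.65 ± 0.11, limma adjusted p = 0.00383). Pth1r, low in this table, stood at 0.674 and 0.267 TPM in DMSO-iPSC and at 1.99 and 1.57 TPM in CD-iPSC (0.93 ± 0.21, limma adjusted p = 0.0125). The collagen chains were thus lower and Lamb1 and Pth1r higher in CD-iPSC, with no overlap between the groups. Without DMSO-iPSC replicate 2 the calls of Col4a1 and Pth1r were lost (-0.40 and 0.73, adjusted p = 0.0877 and 0.0714 by limma), which leaves 1 higher and 1 lower. With all libraries 2 were higher and 2 lower, where 20.0% and 18.5% of all genes were, so the share is near the background. Fibroblast markers summed to 260.4 to 260.6 TPM in DMSO-iPSC and 106 to 116 TPM in CD-iPSC, and smooth muscle and pericyte markers to 411 to 446 TPM and 108 to 132 TPM; their part in the collagen values was not tested.

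Against R1 cells few of the 10 genes differed. In DMSO-iPSC Col4a2 was called higher (0.52 ± 0.13, limma adjusted p = 0.0315) and Lama1 lower (-0.93 ± 0.15, limma adjusted p = 0.00893; 0.70 and -0.75 relative to the median gene), where 6.32% of all genes were called higher and 14.7% lower. The median log2 change over all genes tested was -0.13 as deposited. Relative to the median gene, Lamb1 and Sparc passed as higher as well, for 3 higher and 1 lower beside 9.31% and 7.22% of all genes. The Col4a2 call did not survive the loss of any 1 library of the 2 groups (adjusted p = 0.0818 to 0.165 by limma), nor did that of Lama1 without DMSO-iPSC replicate 1 or 2 or R1 replicate 2 (adjusted p = 0.0518, 0.062 and 0.0665). The calls over all genes were also fewer without any 1 of these libraries, from 1101 higher and 2567 lower to 282 to 420 and 545 to 792. In CD-iPSC Lamb1 was higher (0.84 ± 0.11, limma adjusted p = 0.00308) and Lama1 lower (-1.04 ± 0.15, limma adjusted p = 0.00485) than in R1 cells, beside 7.44% and 16.3% of all genes, and both calls held under each alternative tried.

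**Figure D5:**
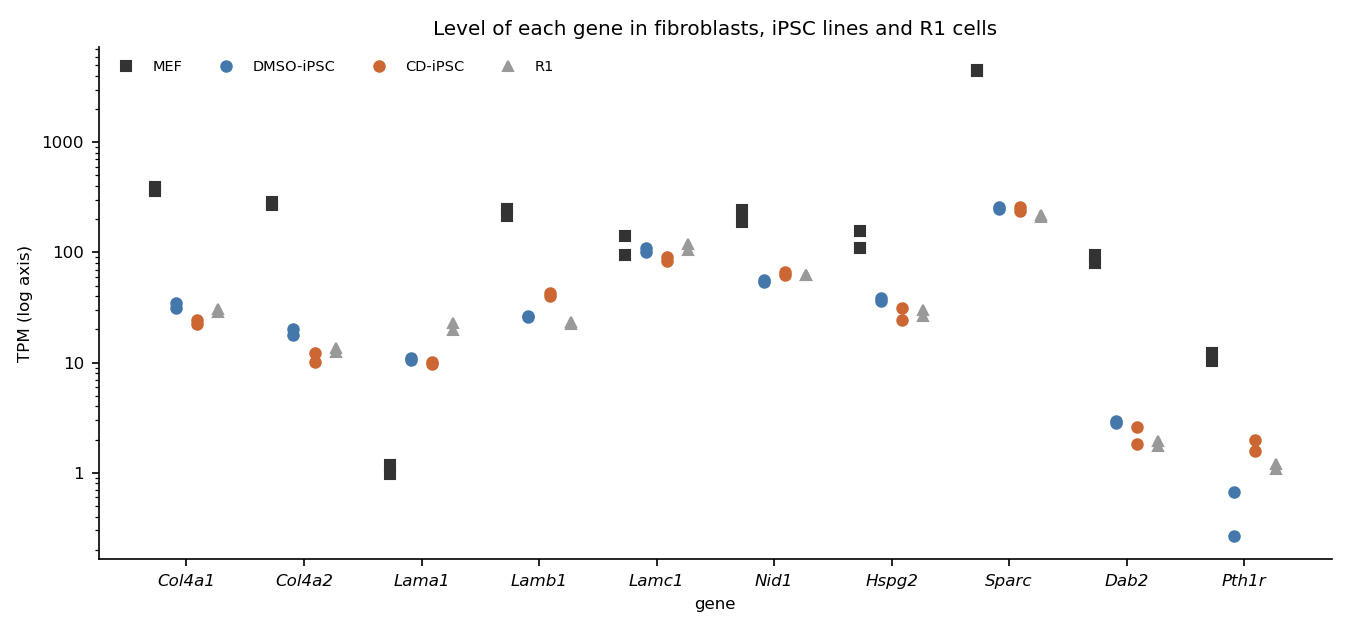
Level of each gene (TPM, log axis) in MEF (dark squares), DMSO-iPSC (blue circles), CD-iPSC (orange circles) and R1 cells (grey triangles), with 1 symbol per library. MEF lie above the other groups for 8 of the 10 genes, overlap with them for Lamc1 and lie below them for Lama1 (0.976 and 1.19 TPM).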

How the data were processed

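Expression was measured by RNA-seq. Per the submitters' processing notes, fastp 0.20.1, HISAT2 2.1.0, StringTie 2.0 and the mm10 build were used, with options that no source used here states. The deposited values of 4 tables are taken as TPM, because each library sums to the same total; their depth is unknown. The deposited actinomycin D table holds a normalized signal, reads divided by a library factor, scaled over genes, repeats and spike-ins (written CPM); 99.988 to 99.998% of its values gave whole reads within 0.001. Gene names came from GENCODE M21 and cover 55141 of the 55401 identifiers.

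From these values, log2(value + 1) was fitted with limma 3.58.1 (R 4.3.3, trended empirical Bayes) with all groups of a table in 1 fit, after keeping genes at 1 or more in at least 2 libraries, with Benjamini-Hochberg adjustment over all genes and a threshold of 0.05. The limma test was also run on simulated data with normal noise of its own fitted spread. Such data meet its assumptions, so this run cannot show how the test performs on these libraries. An exact permutation test of 2 libraries against 2 cannot go below p = 0.333 and was not used. Where the values are shares, the change relative to the median gene was also fitted. edgeR 4.0.16 and DESeq2 1.42.0 were run on the recovered reads, and libraries were also scaled to ERCC spike-ins. Other alternatives were quantile normalization, removal of mitochondrial genes, a pseudocount of 0.1, no filter, a filter at 5, a block for the replicate number and leaving out each library.

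The 10 genes and the lists were chosen with earlier results of these data known. Genes outside the 10 were taken as the 2 per list with the greatest change among those that passed, did not overlap between groups and had a mean of at least 5, or else the gene with the highest mean. A gene that this choice also named is not reported here. Myl3 was added because it overlaps Pth1r.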

Additional observations from a re-analysis of the deposited data

How the results depend on the processing

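Of 1500 alternative values for the change of single genes, 1319 kept direction and side of the threshold, 57 lost and 64 gained the threshold and 60 reversed; of 300 alternative counts of the 10 genes, 242 stayed within 1.5 times. TPM gives no depth, and 2 libraries per group limit every test. The cause of the changes below was not tested, except that leaving out a library leaves fewer samples and a lone library is then assumed to vary like the others.

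Counts of called genes moved as follows. With shE3 the 1 higher call became 2 relative to the median gene and under quantile normalization, and 0 without mitochondrial genes, with a pseudocount of 0.1 and with no filter (0 to 2 leaving out a library); the 6 lower became 0 with no filter. At 0 h the 1 higher became 5 under quantile normalization and 4 with ERCC scaling (0 to 4 leaving out a library), and the 1 lower became 2 by DESeq2 (1 to 3). In the DMSO arm the 1 higher became 2 relative to the median gene, by edgeR and by DESeq2 and 0 under quantile normalization (0 to 1), and the 3 lower became 1 relative to the median gene and by DESeq2, 6 under quantile normalization and 7 with ERCC scaling (1 to 3). In the CD arm the 3 higher became 5 relative to the median gene, by edgeR and by DESeq2 (1 to 7), and the 2 lower became 1 in those fits, without mitochondrial genes and with no filter (1 to 2). The difference between arms gave 0 to 7 higher calls leaving out a library. CD-iPSC against DMSO-iPSC gave 1 to 2 in each direction. Against R1, DMSO-iPSC gave 3 higher relative to the median gene, 2 under quantile normalization and without mitochondrial genes, and 0 without any 1 library of either group (lower, 0 to 1); CD-iPSC gave 2 higher relative to the median gene and 2 lower without mitochondrial genes.

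Reversed values, in log2, were these. Relative to the median gene: Dab2 with CD -0.082, Sparc with Rxra OE -0.58, Lamb1 at 0 h -0.11, Lamb1 and Lamc1 in the DMSO arm 0.14 and 0.065, Lama1 in the CD arm 0.29, the Pth1r difference between arms -0.049, Lamc1 in DMSO-iPSC against MEF 0.015 and against R1 0.094, Nid1 in DMSO-iPSC against R1 0.017, and Hspg2 in CD-iPSC against R1 0.10. Under quantile normalization: Sparc -0.11 and Dab2 -0.088 with CD, Sparc with Rxra OE -0.51, Sparc in the DMSO arm -0.18, in the CD arm Col4a1 -0.26, Col4a2 -0.45, Lamb1 -0.24, Lamc1 -0.18 and Dab2 0.025, the Pth1r difference -0.36, Lamc1 in DMSO-iPSC 0.036 against MEF and 0.045 against R1, and Hspg2 in CD-iPSC against R1 0.11. Without mitochondrial genes: Sparc with Rxra OE -0.15 and Lamc1 in DMSO-iPSC against MEF 0.0087. By edgeR and DESeq2: Lamb1 at 0 h -0.13 and -0.091, Lamb1 0.11 and 0.16 and Lamc1 0.056 and 0.10 in the DMSO arm, Lama1 in the CD arm 0.33 and 0.27, and by DESeq2 the Pth1r difference -0.061. With ERCC scaling: Sparc in the DMSO arm -0.14, Col4a1 -0.11, Col4a2 -0.17 and Lamb1 -0.033 in the CD arm, and the Pth1r difference -0.073.

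Leaving out a library, the range of those that reversed was, at 0 h, -0.23 to 0.32 for Lamb1, -0.24 to 0.56 for Lamc1 and -0.75 to 0.013 for Sparc. It was -0.080 to 0.34 for Sparc in the DMSO arm, -0.19 to 0.66 for Col4a1, -0.21 to 0.55 for Col4a2 and -0.30 to 0.13 for Lama1 in the CD arm, and -0.16 to 0.43 for Hspg2 and -0.36 to 0.37 for Pth1r in the difference. In iPSC it was -0.092 to 0.020 for Sparc (CD against DMSO), -0.42 to 0.16 for Lamc1 (DMSO-iPSC against MEF), and, for CD-iPSC against R1, -0.00046 to 0.083 for Nid1, -0.19 to 0.14 for Hspg2 and -0.0092 to 0.35 for Dab2.

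The labels do not say that replicate numbers pair libraries, and deviations of same-numbered libraries correlated at -0.11, -0.14 and 0.08 in the CD, Rxra OE and shE3 tables and at -0.13 to 0.06 in the iPSC table. In the actinomycin D table the pairs of groups ranged from -0.69 (CD 0 h with DMSO 8 h) to 0.54 (CD 0 h with DMSO 0 h), with 0.35 for CD 0 h with CD 4 h and -0.49 for DMSO 0 h with DMSO 8 h, so same-numbered libraries did not deviate together throughout. With the replicate number as a block, calls over all genes went from 5612 higher and 2534 lower to 5635 and 2590 with CD, from 9123 and 1862 to 9067 and 1808 with Rxra OE, and from 761 and 1934 to 703 and 2106 with shE3; at 0 h of actinomycin D they went from 1402 and 1093 to 819 and 848, in the DMSO arm from 637 and 4645 to 512 and 3993 and in the CD arm from 2245 and 7045 to 2111 and 6713. Of the 10 genes, Hspg2 with shE3 and Col4a2 in DMSO-iPSC against R1 lost their calls, which left 0 higher in each. A crossed pairing, chosen after seeing the data, gave 5533 and 2449 calls with CD and 9327 and 1922 with Rxra OE.

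Over all genes, relative to the median gene lower calls went from 2534 to 4051 with CD, the Rxra OE calls from 9123 and 1862 to 4667 and 4718, and shE3 higher calls from 761 to 2224; with no filter shE3 gave 1 and 1. In the DMSO arm 637 higher and 4645 lower became 2307 and 2377 by edgeR and 102 and 2895 with ERCC scaling, in the CD arm 2245 higher became 4633 by edgeR and 931 with ERCC scaling, and at 0 h 1402 and 1093 became 103 and 186 with ERCC scaling. The difference between arms, 1 higher and 0 lower by limma, was 28 and 25 by DESeq2. Lower calls in DMSO-iPSC against R1 went from 2567 to 1257 relative to the median gene. Leaving out a library moved the calls over all genes by more than 1.5 times in the shE3 and actinomycin D tables and against R1; those of CD-iPSC against R1 went from 1295 and 2839 to 517 and 1288 without R1 replicate 1 and to 451 and 1038 without R1 replicate 2, and those of CD-iPSC against DMSO-iPSC from 3486 and 3218 to 2219 and 1983 without DMSO-iPSC replicate 1 and to 2047 and 1934 without replicate 2. The difference between arms gave 302 and 44 without CD 0 h replicate 2.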
